A study of Mus musculus with 4 samples.

Results

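The genes described are the mouse metalloproteinases and their tissue inhibitors, taken as every gene whose symbol is Mmp, Adam, Adamts or Timp followed by a digit. They numbered 74 of 19057 genes named on the array, read by 148 of 34885 probes: 21 Mmp, 32 Adam, 17 Adamts and 4 Timp genes. Transcript levels were measured in skin biopsies of 5 mm in diameter. All mice had the strain background C57Black6/J. Wild-type mice (WT) and mice deficient in the leukotriene receptor BLT2 (BLT2KO) were each sampled without a wound and, as WT_punched and BLT2KO_punched, 2 days after punching. RNA of 3 mice was pooled for each group and read on 1 Illumina MouseWG-6 array, so every ratio compares 1 pool with another, has no replicate check and was not tested.

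Metalloproteinases are enzymes that cut with a zinc ion in the active site. Matrix metalloproteinases (MMPs) cut collagens and other matrix proteins and are made as inactive precursors; ADAMs mostly shed growth factors, cytokines and receptors from the cell surface; ADAMTS proteases are secreted and act on proteoglycans and procollagens; and TIMPs bind and block the active enzymes. In skin wounds, keratinocytes at the wound edge, fibroblasts and invading leukocytes are known sources of these enzymes.

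The MMP genes include a run of 10 neighbouring protein-coding genes on chromosome 9, in the order Mmp13, Mmp12, Mmp1b, Mmp3, Mmp1a, Mmp10, Mmp8, Mmp27, Mmp20 and Mmp7, with no other protein-coding gene between them in the RefSeq table. Of these, 9 were named on the array and Mmp27 was not analysed here. The run was singled out after the values had been seen. The 100 bases before the start are shown for the 5 members of the run that were detected and for Mmp8, which was not detected. They are RefSeq promoter sequences of build GRCm38.p6, all on the plus strand, written 5′ to 3′, and capitals mark matches to TGANTCA, the motif of the AP-1 transcription factors that is well known from MMP promoters.
Mmp13, chr9:7272414-7272513: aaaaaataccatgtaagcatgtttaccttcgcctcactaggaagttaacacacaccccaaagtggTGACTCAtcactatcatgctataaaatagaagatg
Mmp12, chr9:7347274-7347373: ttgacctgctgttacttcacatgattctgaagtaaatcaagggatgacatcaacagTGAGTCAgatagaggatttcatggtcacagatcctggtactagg
Mmp3, chr9:7445722-7445821: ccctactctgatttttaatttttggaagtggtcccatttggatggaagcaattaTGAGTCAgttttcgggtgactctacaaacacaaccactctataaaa
Mmp1a, chr9:7464041-7464140: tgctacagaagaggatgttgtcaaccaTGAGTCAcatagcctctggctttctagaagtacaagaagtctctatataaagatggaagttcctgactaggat
Mmp10, chr9:7502242-7502341: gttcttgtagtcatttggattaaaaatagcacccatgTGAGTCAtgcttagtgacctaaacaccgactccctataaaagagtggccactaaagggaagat
Mmp8, chr9:7558329-7558428: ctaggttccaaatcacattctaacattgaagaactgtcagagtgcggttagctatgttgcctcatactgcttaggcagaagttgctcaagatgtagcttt

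The match begins 35 bases before the start in Mmp13, 44 in Mmp12, 46 in Mmp3, 63 in Mmp10 and 73 in Mmp1a. Over windows from 250 bases before to 50 after the start, read on both strands, TGANTCA was found in 8 of the 10 genes of the run (all but Mmp8 and Mmp27) and in 0 of the 7 MMP genes elsewhere that had a promoter in the table. It was found in 4 of 16 Adam, 0 of 9 Adamts and 0 of 4 Timp genes, and in 8.97% of all 27025 genes with a promoter (7.81% of 32851 windows). By signal, 5 of 23 detected and 7 of 22 undetected members with a promoter held it. The undetected Mmp1b, Mmp20 and Mmp7 of the run, not shown, were among those that held it. Mmp9, Mmp2, Adamts4, Adamts15 and Adamts7 were among the members with no promoter sequence here, so they were not searched for either motif. Of the members at least 2-fold apart in a comparison, 5 had a promoter, and 2 of these held TGANTCA. A gene was counted if any of its windows had a match. Mmp12 and Mmp7 each have 2 windows, of which only 1 had a match, and for Mmp12 that window is shown. The NF-kB motif was found in 0 of the 45 members with a promoter, in a form with 1 free base (0.411% of all windows) or with none (0.155%). A match describes these letters only and says nothing about binding.

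Signal was called where the deposited detection p-value was under 0.01. At this threshold 36 of the 74 genes were detected on at least 1 array and 27 on all 4, against 57.3% of all named genes on at least 1 array. The share differed by subfamily: 15 of 21 Mmp, 9 of 32 Adam, 8 of 17 Adamts and 4 of 4 Timp genes were detected. On single arrays, 28 genes were detected in WT, 31 in BLT2KO, 31 in WT_punched and 33 in BLT2KO_punched. Whole arrays had 16383 to 17201 of 45281 probes detected, and the median intensity of undetected probes was 65.1 and 63.9 on the unwounded WT and BLT2KO arrays against 93.2 and 89.3 on the punched ones. No probe was named for Ltb4r2, the gene of BLT2, so the genotype labels were not checked here.

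The 38 genes not above background on any array included Mmp8, the neutrophil collagenase, Mmp7, the matrilysin of glandular epithelia, and Adam10, the main sheddase of Notch receptors, which had 2 probes. The others were Mmp1b, Mmp20, Mmp21 and Mmp28, 22 further Adam genes, among them the testis genes Adam2 and Adam5, and 9 Adamts genes, among them the procollagen N-proteinases Adamts3 and Adamts14. For these, only a level under the detection limit is known. A further 9 genes were detected on some arrays only: Mmp10, Mmp16, Mmp19, Mmp25, Adam12, Adam22, Adam33, Adamts6 and Adamts18.

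**Figure D1:**
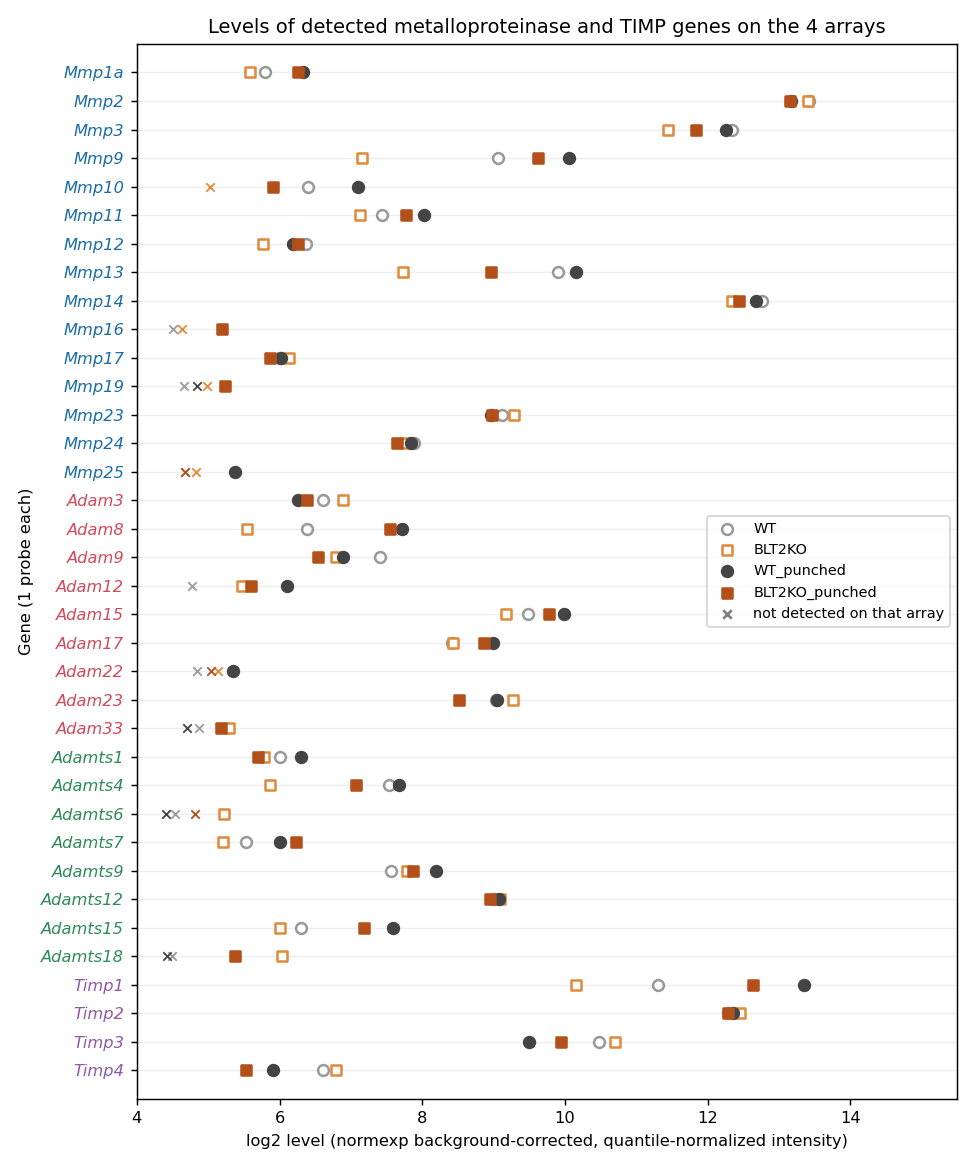
Log2 level (horizontal axis, background-corrected and quantile-normalized intensity) of each of the 36 detected genes (vertical axis, coloured by subfamily) on the 4 arrays. Circles are WT and squares BLT2KO, open unwounded and filled punched, and crosses are arrays on which the gene was not detected. Levels compare arrays within a row and not rows with each other, since probes differ in brightness; Timp1 spans 10.15 to 13.34 and Mmp2 13.16 to 13.42.

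Levels are given as log2 of background-corrected, quantile-normalized intensity, always in the order WT, BLT2KO, WT_punched and BLT2KO_punched, and ratios as differences of these levels. The only error at hand is technical: different probes of 1 gene, read on the same arrays, gave log2 ratios with an SD of 0.28 for punching in WT, 0.27 for punching in BLT2KO, 0.22 for genotype in unwounded and 0.19 for genotype in punched skin. In bulk skin, fewer cells of a type and less RNA per cell cannot be told apart. The 4 comparisons share arrays: a high or low value on 1 array enters 2 of them.

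Among the inhibitors, punching went with a much higher Timp1, the inducible TIMP that blocks most MMPs, and with a lower Timp3 and Timp4, whereas Timp2 hardly differed between arrays. Timp1 stood at 11.30, 10.15, 13.34 and 12.63. Both punched arrays were above both unwounded ones, and within each state BLT2KO was below WT. Punched skin had 4.12-fold more Timp1 signal than unwounded skin in WT and 5.58-fold more in BLT2KO (log2 ratios 2.04 and 2.48). BLT2KO was 2.22-fold below WT in unwounded skin and 1.64-fold below in punched skin. The other Timp1 probe gave log2 ratios of 2.06 and 2.50 for punching, and -1.06 and -0.62 for genotype.

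Timp3, the matrix-bound TIMP that also blocks ADAM17 and the aggrecanases, stood at 10.48, 10.70, 9.49 and 9.94. Here the punched arrays lay below the unwounded ones, 1.98-fold in WT and 1.70-fold in BLT2KO. A dimmer Timp3 probe gave a log2 ratio of -0.09 with punching in BLT2KO, against -0.76 from the probe used. In unwounded skin the 3 Timp3 probes gave genotype log2 ratios of -0.11, -0.003 and 0.22. Timp4 stood at 6.61, 6.78, 5.90 and 5.52 and was likewise lower on both punched arrays, 1.64-fold in WT and 2.39-fold in BLT2KO. Timp2, which with MMP14 helps to activate pro-MMP2, stood at 12.28, 12.46, 12.36 and 12.28. None of its 4 ratios exceeded the probe SD of its comparison.

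Collagenases cut fibrillar collagen, and Mmp13 is the main one of rodents. Its level was 9.91, 7.73, 10.16 and 8.97, so both BLT2KO arrays were below both WT arrays. The difference was 4.53-fold in unwounded and 2.28-fold in punched skin. Punching went with a 1.19-fold higher Mmp13 in WT and a 2.36-fold higher one in BLT2KO. Of its 3 probes only this 1 was detected. Mmp1a, the rodent counterpart of interstitial collagenase, stood at 5.79, 5.58, 6.32 and 6.26, higher on the punched arrays by 1.45-fold in WT and 1.60-fold in BLT2KO. Another Mmp1a probe ran the other way: it was detected on the unwounded arrays only, at 5.38 and 5.62.

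Of the gelatinases, which cut denatured and basement membrane collagen, Mmp9 differed widely and Mmp2 did not. Mmp9, made by neutrophils, macrophages and keratinocytes, stood at 9.07, 7.15, 10.06 and 9.63. The unwounded BLT2KO array was the low one, 3.77-fold below unwounded WT, while the punched arrays differed 1.35-fold. Punching therefore went with 1.98-fold more Mmp9 in WT and 5.55-fold more in BLT2KO, a ratio of these ratios of 2.80. Mmp2, a product mainly of fibroblasts, stood at 13.42, 13.40, 13.16 and 13.16. Its genotype ratios were -0.02 and -0.01 on the log2 scale, and its punching ratios, -0.26 and -0.25, were within the probe SD.

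The stromelysins cut proteoglycans, laminin and fibronectin and activate other pro-MMPs. Mmp3, stromelysin-1, stood at 12.34, 11.44, 12.26 and 11.84, with both BLT2KO arrays below both WT arrays. It was 1.87-fold lower in BLT2KO than in WT in unwounded skin and 1.34-fold lower in punched skin. Its other 2 probes gave log2 ratios of -1.14 and -0.90 in unwounded and -0.29 and -0.37 in punched skin. For punching they gave -0.55 and -0.46 in WT against -0.08 from the probe used.

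Mmp10, stromelysin-2, a gene of migrating keratinocytes at the wound edge, was at 6.40 in WT, 7.11 in WT_punched and 5.91 in BLT2KO_punched, and was not detected in unwounded BLT2KO. Each BLT2KO value was below its WT partner, by at least 2.30-fold in unwounded and by 2.29-fold in punched skin. Over the other settings the log2 ratios ranged down to -0.57 and -0.69, and 5 of 8 settings kept each past 2-fold. With punching it was 1.63-fold higher in WT and at least 1.64-fold higher in BLT2KO. Mmp11, stromelysin-3, stood at 7.43, 7.12, 8.02 and 7.78, higher on both punched arrays (1.5-fold in WT and 1.57-fold in BLT2KO).

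Mmp12, the macrophage elastase, stood at 6.37, 5.76, 6.19 and 6.26, with unwounded BLT2KO the only low array, 1.52-fold under unwounded WT. Mmp14, the membrane-bound MMP that activates pro-MMP2 at the cell surface, stood at 12.76, 12.34, 12.68 and 12.43. BLT2KO was below WT 1.33-fold in unwounded and 1.19-fold in punched skin, and the punching ratios were -0.08 and 0.09. The remaining MMPs detected on all arrays, Mmp17, Mmp23 and Mmp24, had log2 ratios between -0.31 and 0.17 in the 4 comparisons. Mmp16 and Mmp19 were detected on BLT2KO_punched alone and Mmp25, a membrane-anchored MMP of leukocytes, on WT_punched alone, each close to the detection limit.

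**Figure D2:**
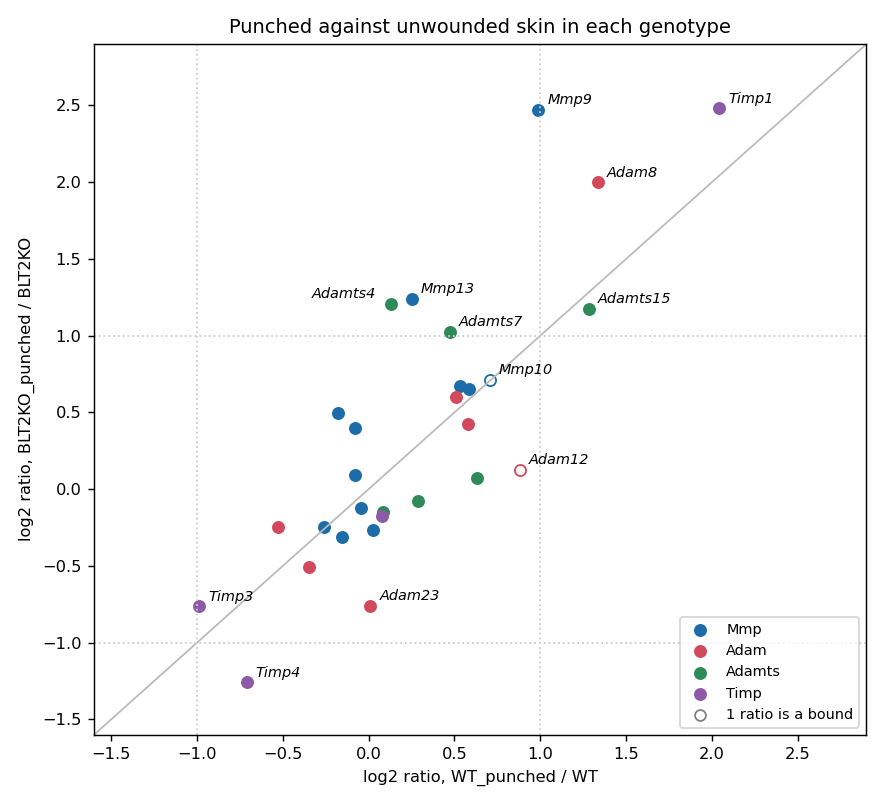
Log2 ratio of punched over unwounded skin in WT (horizontal) and in BLT2KO (vertical) for each gene measured in both, coloured by subfamily; the diagonal marks equal ratios, dotted lines mark 2-fold, and open points have 1 ratio that is a bound. Timp1 is far out on both axes at 2.04 and 2.48, Mmp9 lies well above the diagonal at 0.99 and 2.47, and Mmp13 and Adamts4 reach 2-fold in BLT2KO alone.

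Among the ADAMs, Adam8, a cell-surface protease of leukocytes, had the widest spread. It stood at 6.38, 5.55, 7.72 and 7.55, with both punched arrays above both unwounded ones. The punching ratio was 2.52-fold in WT and 4.00-fold in BLT2KO, and its second probe gave log2 ratios of 1.21 and 1.70. Unwounded BLT2KO was 1.78-fold below WT, whereas the punched arrays differed 1.12-fold, within the probe SD.

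Adam17, the sheddase of TNF and of EGF receptor ligands, stood at 8.42, 8.43, 8.99 and 8.86. It was 1.49-fold higher with punching in WT and 1.34-fold higher in BLT2KO, with genotype ratios within the probe SD. Adam15, found on endothelium and epithelium, stood at 9.48, 9.18, 9.99 and 9.78 and was 1.42-fold and 1.52-fold higher with punching. A dimmer Adam15 probe gave a log2 ratio of 0.02 with punching in BLT2KO, and its probes disagreed in sign between genotypes. Adam9 ran the other way at 7.41, 6.79, 6.88 and 6.54, highest in unwounded WT. Adam23, which lacks protease activity and binds integrins, stood at 9.03, 9.28, 9.04 and 8.52, with the BLT2KO_punched array low, 1.69-fold under unwounded BLT2KO.

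Adam12, known from regenerating and fibrotic tissue, was not detected in WT and stood at 5.47 in BLT2KO, 6.10 in WT_punched and 5.59 in BLT2KO_punched. Its punching ratio was thus at least 1.84-fold in WT and 1.09-fold in BLT2KO. Adam3, a sperm gene, was detected on all 4 arrays with ratios of at most 1.42-fold. Adam22 was detected on WT_punched alone and Adam33 on both BLT2KO arrays alone, near the detection limit.

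Of the ADAMTS proteases, Adamts4, the aggrecanase-1 that cuts aggrecan and versican, was low on 1 array: its levels were 7.54, 5.87, 7.67 and 7.08. Unwounded BLT2KO lay 3.19-fold under unwounded WT, and BLT2KO_punched 1.51-fold under WT_punched. Its punching ratio was 1.10-fold in WT and 2.31-fold in BLT2KO. Adamts15, another versican-cutting protease, stood at 6.31, 6.01, 7.59 and 7.19, and was higher with punching by similar factors in both genotypes, 2.43-fold and 2.26-fold. Adamts7, which cuts cartilage oligomeric matrix protein, stood at 5.53, 5.21, 6.0 and 6.24 and was 1.39-fold higher with punching in WT and 2.04-fold in BLT2KO.

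Adamts9, a versican-cutting protease, stood at 7.56, 7.79, 8.19 and 7.87, with WT_punched the high array, 1.55-fold over WT. A dimmer Adamts9 probe was detected on the unwounded arrays only, at 5.30 and 5.41. Adamts12 stood at 9.0, 9.09, 9.08 and 8.94 and had no ratio above the probe SD. Adamts1 stood at 6.01, 5.78, 6.29 and 5.70, with BLT2KO_punched 1.51-fold under WT_punched. Adamts18 was detected on the BLT2KO arrays alone, at 6.04 unwounded and 5.38 punched, which is at least 1.76-fold and at least 1.13-fold over the WT arrays. A second Adamts18 probe was also detected on those arrays only, at 5.36 and 5.17.

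Counted over the set, punched WT skin had 3 genes at least 2-fold higher than unwounded WT skin and 0 at least 2-fold lower, of 31 measured (detected on at least 1 of the 2 arrays, 3 of them on 1 only). They were Timp1, Adam8 and Adamts15; without background correction, or on the authors' scaled values, only 1 was past 2-fold, Timp1. The shares over all measured genes were 1.94% for higher and 1.48% for lower. The median log2 ratio was 0.13 over the members and 0.03 over all genes.

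In BLT2KO skin, 7 of 34 measured members were at least 2-fold higher with punching and 1 was lower, against 3.1% and 1.71% of all genes. The 7 were Timp1, Mmp9, Adam8, Mmp13, Adamts4, Adamts15 and Adamts7, and the lower one was Timp4. With an offset of 50 in place of 16, without background correction, or on the authors' scaled values, the split was 4 higher and 0 lower. For the 27 members detected on all 4 arrays, the punching ratio was at least 2-fold larger in BLT2KO than in WT for 2, Mmp9 and Adamts4, and at least 2-fold larger in WT for 0. The same held for 1.17% and 0.571% of all 9111 such genes. For Mmp13 the ratio of ratios was 1.98. For Mmp9, Adamts4 and Mmp13 the punched arrays of the genotypes were closer than the unwounded ones.

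Between genotypes in unwounded skin, 5 of 32 measured members were at least 2-fold lower in BLT2KO and 0 at least 2-fold higher, against 1.17% and 1.08% of all genes. They were Mmp13, Mmp9, Adamts4, Mmp10 and Timp1. In punched skin, 2 of 35 were at least 2-fold lower in BLT2KO, Mmp10 and Mmp13, and 0 higher, against 0.541% and 1.08% of all genes. Smaller differences also leaned one way there: 26 of 33 ratios were below 0, against 5754 of 10360 over all genes, with medians of -0.24 and -0.03. Adam33 and Mmp16 are left out of that count, since each was detected in BLT2KO_punched only and at a level that gives no fold.

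**Figure D3:**
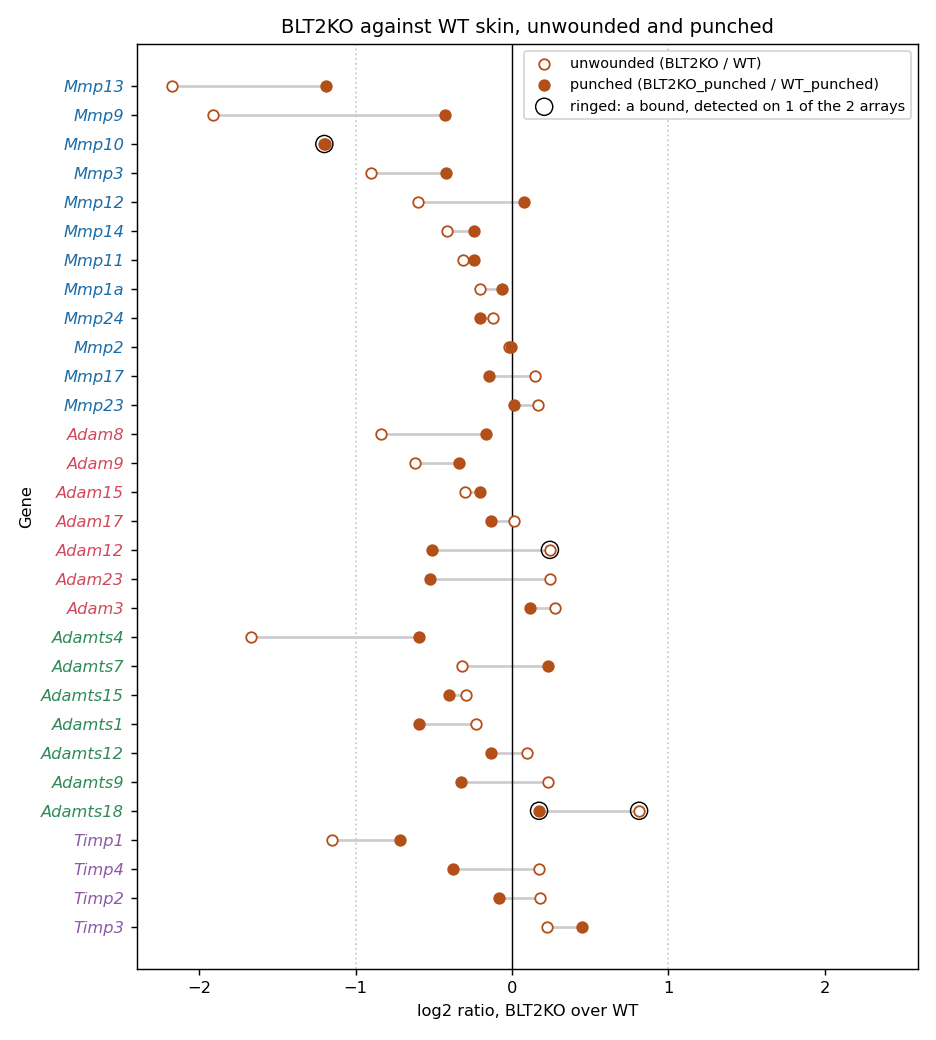
Log2 ratio of BLT2KO over WT for each gene in unwounded (open) and punched (filled) skin, by subfamily; a line joins the states, dotted lines mark 2-fold, and ringed points are bounds from genes detected on 1 of 2 arrays. Mmp13, Mmp9 and Adamts4 lie furthest left in unwounded skin at -2.18, -1.91 and -1.67, and no gene is 2-fold to the right.

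By subfamily, the low values of unwounded BLT2KO skin were mostly MMPs: 10 of 12 measured Mmp ratios were below 0, with a median of -0.36. Over all genes 5331 of 10206 were below 0, with a median of -0.01. The medians were 0.04 for 8 Adam genes, -0.12 for 8 Adamts genes (-0.23 without Adamts6, which has no fold) and 0.17 for 4 Timp genes. For Timp this means that the ratio of Timp1 alone was below 0, with 3 of 4 above 0. In punched skin the medians were -0.20, -0.21, -0.33 and -0.23 in the same order, with 11 of 14 Mmp and 7 of 8 Adam ratios below 0 once Mmp16 and Adam33 are left out.

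With punching in WT, the medians were 0.03 for Mmp, 0.32 for Adam, 0.38 for Adamts and -0.32 for Timp genes. There 6 of 6 measured Adamts ratios were above 0, against 5524 of 10345 over all genes. In BLT2KO the medians were 0.25 (0.40 without Mmp16, which has no fold), 0.01, 0.00 and -0.47 in the same order. The subfamilies hold few measured genes and the differences between their medians were not tested; 5 of the 16 medians changed sign in at least 1 of 9 other settings. These were the Adam medians of punching in both genotypes and of unwounded genotype, and the Adamts medians of punching in BLT2KO and of punched genotype.

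Set against the other MMPs, the chromosome 9 run stood lower in unwounded BLT2KO skin. All 5 detected genes of the run were below WT there, with a median log2 ratio of -0.90, although the second detected Mmp1a probe had 0.25. Of the rest, 5 of 7 measured MMP genes elsewhere were below WT, with a median of -0.12. With punching in BLT2KO, 5 of 5 genes of the run were higher, with a median of 0.68. Elsewhere 4 of 8 MMP genes were higher, with a median of -0.04, Mmp16 left out, and over all genes 5295 of 10401 were higher. The median of the run was 0.41 with an offset of 50 and 0.34 without background correction, and 4 of 5 were higher with the mean of probes. In WT, 3 of 5 were higher with a median of 0.25, but 2 of 5 with a median of -0.06 with the mean of probes, and in punched skin 4 of 5 were lower in BLT2KO with a median of -0.42. In unwounded skin the genotype ratios within the run varied from -2.18 for Mmp13 to -0.21 for Mmp1a. All 5 promoters shown for these genes hold the AP-1 motif, Mmp12 in 1 of its 2 windows. Mmp9, among the lowest genes outside the run, lies on chromosome 2 and had no promoter sequence to search for the motif.

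**Figure D4:**
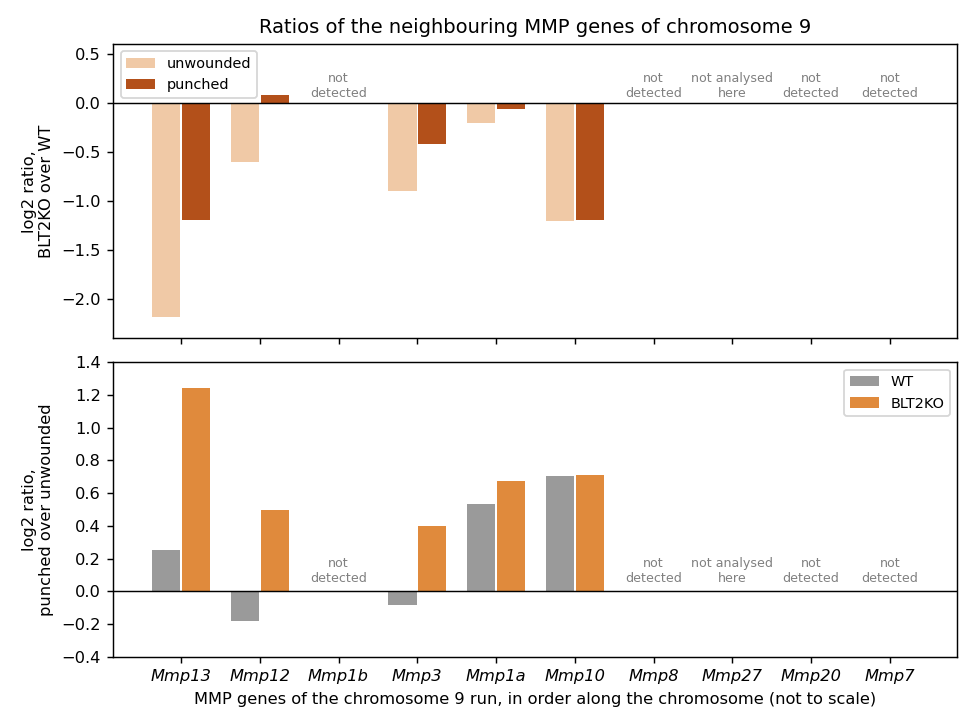
Log2 ratios of the MMP genes of chromosome 9 in their order along the chromosome (not to scale), for BLT2KO over WT (upper panel, unwounded and punched) and punched over unwounded (lower panel, WT and BLT2KO); the 2 Mmp10 bars that involve unwounded BLT2KO are bounds. All 5 detected genes are below 0 in unwounded skin, from -0.21 to -2.18, and above 0 with punching in BLT2KO, from 0.40 to 1.24.

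Several of these genes are known products of leukocytes or of wound-edge keratinocytes, so markers of these cells were counted. Of 12 neutrophil markers on the array, 9 were detected. Ngp, Camp and Mpo, granule genes of immature neutrophils, were not detected on any array. Ltf, also a granule gene, was detected on the punched arrays only, at 5.55 in WT_punched and 5.44 in BLT2KO_punched. Of the granule genes counted among the activators below, Elane was detected on WT_punched alone, at 5.42, and Ctsg on no array. With punching, 6 of 9 were at least 2-fold higher in WT and 8 of 9 in BLT2KO, and in unwounded skin 6 of 8 were at least 2-fold lower in BLT2KO than in WT. In punched skin 0 of 9 differed 2-fold between genotypes. Their summed normalized intensity was 14480 in WT, 4948 in BLT2KO, 27150 in WT_punched and 24370 in BLT2KO_punched, the same order of arrays as for Mmp9 and Adam8. S100a8 and S100a9, the brightest markers at 13.08 and 11.82 in WT, weigh most in these sums. Timp1, Mmp1a, Mmp11, Adam15 and Adamts15 had this order of arrays too, as did the macrophage sums below. The order is therefore not particular to neutrophil markers or leukocyte genes. The neutrophil markers' part in the ratios of Mmp9 and Adam8 was not tested.

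The 12 monocyte and macrophage markers were all detected, and their sums were 18790, 13080, 24530 and 22890. With punching 3 of 12 were at least 2-fold higher in each genotype, and 1 of 11 was at least 2-fold lower in unwounded BLT2KO. For 7 wound-edge keratinocyte markers the sums were 80430, 58980, 85860 and 73510. With punching, 4 of 7 were higher in WT and 5 of 7 in BLT2KO, with median log2 ratios of 0.02 and 0.45. At least 2-fold higher were 0 of 7 in WT and 2 of 7 in BLT2KO. All 7 were below WT in BLT2KO in both states, with 2 of 7 at least 2-fold lower in unwounded and 0 of 7 in punched skin. WT above BLT2KO within each state is also the order of Mmp13, Mmp10 and Timp1. The sums of several other marker lists, neutrophils and macrophages among them, had it too, so it is not particular to wound-edge cells. The part of these cells was not tested. The 8 fibroblast markers summed to 29260, 34940, 22940 and 25860, but 5 of 8 were above WT in BLT2KO and 3 below in each state, with medians of 0.16 and 0.14.

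Hair follicle markers also separated the arrays: the 10 of the hair shaft and inner root sheath summed to 6239, 42510, 1089 and 43900. Both BLT2KO arrays were high, 9 of 10 markers being at least 2-fold over WT in each state. With punching, 9 of 9 measured markers were at least 2-fold lower in WT and 0 of 10 in BLT2KO. Neither genotype nor punching in WT, nor the difference between punching ratios, can therefore be told apart from hair content for any member. Muscle and adipose markers differed as well: with punching in WT, 4 of 10 muscle markers were at least 2-fold higher and 1 lower. Further, 4 of 10 muscle and 5 of 5 adipocyte markers were at least 2-fold lower in BLT2KO_punched than in WT_punched. Markers of basal keratinocytes, endothelium, mast cells and T cells had at most 1 member at 2-fold in any comparison.

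Proteins that activate, bind or are cut by these enzymes were counted in 4 lists. Among activators, Plaur, the receptor that focuses plasmin formation at the cell surface, was 2.32-fold higher with punching in WT and 7.18-fold in BLT2KO, and 2.54-fold lower in unwounded BLT2KO than in WT. The mast cell tryptase Tpsab1 was at least 2.32-fold higher with punching in WT and 2.07-fold lower in BLT2KO_punched than in WT_punched. No other activator of 13 measured in WT, 12 in BLT2KO, 11 in unwounded and 13 in punched skin differed 2-fold.

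Among other inhibitors and partners, Thbs1, the matrix protein thrombospondin-1, was 2.5-fold higher with punching in WT and 7.32-fold in BLT2KO. Lcn2, the lipocalin that forms a complex with MMP9, had punching ratios of 2.00-fold, just under the threshold, and 4.18-fold. Both were lower in unwounded BLT2KO than in WT, Lcn2 3.29-fold and Thbs1 2.38-fold, and these were 2 of 12 measured, with 0 of 13 at 2-fold in punched skin. Reck, a membrane-anchored MMP inhibitor, was lower on the punched arrays, 1.92-fold in WT and 1.75-fold in BLT2KO.

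Of the matrix substrates, 0 of 16 reached 2-fold with punching in WT or between genotypes in punched skin. Few of all genes did so either. With punching in WT 1.94% were higher and 1.48% lower, and between genotypes in punched skin 1.08% and 0.541%. In BLT2KO, Tnc, the wound matrix protein tenascin-C, was 2.68-fold higher and the collagen gene Col1a2 2.38-fold lower with punching, and Tnc was 3.94-fold lower in unwounded BLT2KO than in WT. Of the shed ligands and receptors, Btc, an EGF receptor ligand, was 2.6-fold lower with punching in WT, the only one of 14 measured. In BLT2KO, 2 of 15 were higher with punching: Tnf, the ligand shed by ADAM17 (4.07-fold), and its receptor gene Tnfrsf1b (at least 2.9-fold). In unwounded skin Tnf was 3.02-fold and the ligand gene Nrg1 3.40-fold lower in BLT2KO than in WT, and 0 of 14 reached 2-fold in punched skin.

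Ratios of at least 2-fold kept their sign under all 8 other settings of background correction, normalization, detection and probe choice, but not always their size. Timp1 with punching was past 2-fold under every setting in both genotypes, as were Mmp9 and Adam8 with punching in BLT2KO, and Mmp9 and Adamts4 between genotypes in unwounded skin. Mmp13 in unwounded skin ranged from -2.18 to -0.80; the smallest value is the mean with its 2 undetected probes. The larger punching ratio of Mmp9 in BLT2KO was 2-fold or more in 9 of 9 settings, that of Adamts4 in 5 of 9.

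**Figure D5:**
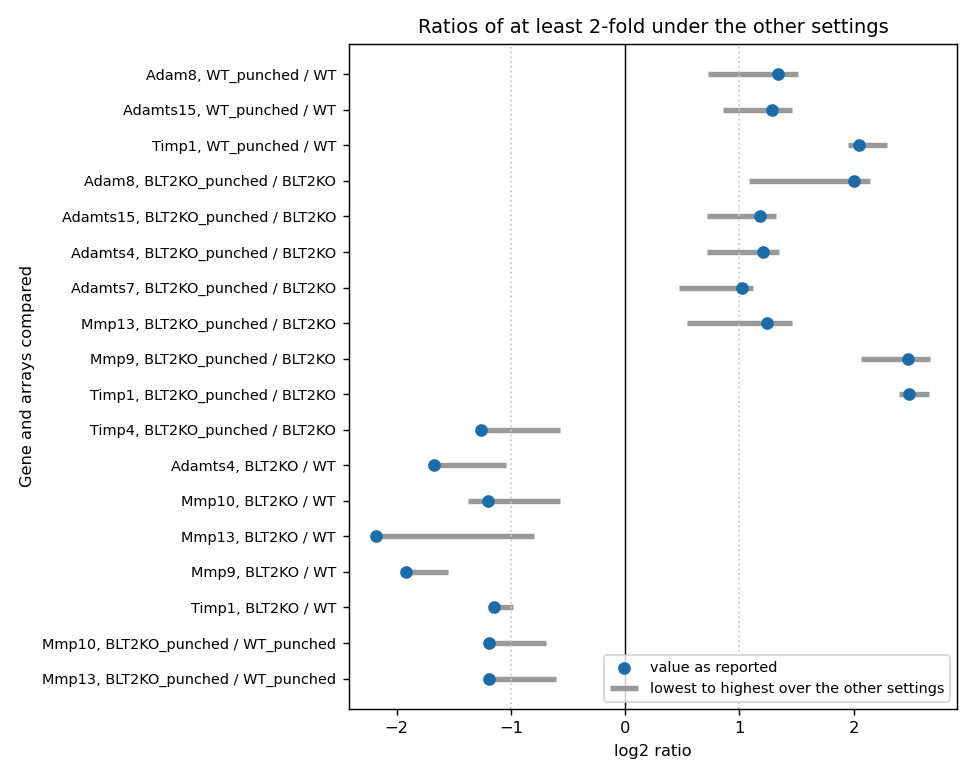
Log2 ratios (horizontal axis) of the genes at least 2-fold apart in each comparison (vertical axis), as reported and as a range over the 8 other settings; dotted lines mark 2-fold. No range crosses 0, and that of Timp1 with punching, 1.95 to 2.29 in WT, stays past 2-fold while that of Adam8 in WT starts at 0.73.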

How the data were processed

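The authors deposited a linear intensity per probe, exported without normalization, with a detection p-value beside each one, per the file headers, for 45281 probes on 4 arrays. Their second deposited table held the same intensity values times 1 constant per array (1.24, 1.12, 0.963 and 0.950), which gave every array a mean of 348. Per the labels' protocols, RNA was amplified, labelled and its signals were exported from BeadStudio.

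Intensities were background-corrected from the detection p-values (normexp, offset 16), quantile-normalized with limma 3.58.1 in R 4.3.3 and expressed as log2 levels, then analysed in Python 3.11.15; the steps were tested on simulated data. Names came from the platform annotation (34885 probes with 1 gene, 18 with several, 10378 unlisted), of which 34807 matched RefSeq. The probe with the highest mean stood for its gene. A gene detected on 1 of 2 arrays got a bound, with the lowest detected log2 level of the other array (5.23, 5.20, 5.20 and 5.10) as its floor. The number of arrays limits the precision.

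Genes named were all TIMPs, members 2-fold apart in a comparison or between punching ratios, the 3 brightest Mmp, Adam and Adamts genes, and 10 chosen for their role; the other detected members were named after their values were seen. The members, lists and rules were chosen with earlier results of these data known. Alternatives were another offset, no background correction, median scaling, the authors' scaled values, other detection thresholds and other probe choices, and a wider choice of symbols. A search of protein sequences for the zinc-binding motif was not run.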

Additional observations from a re-analysis of the deposited data

Results flagged for a closer look

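For 3 genes detected on all 4 arrays, the punching ratio had opposite signs in the 2 genotypes and differed by more than 0.39 on the log2 scale, the combined probe SD; with 1 array per group the differences were not tested. Adam23 had 0.01 in WT and -0.76 in BLT2KO, a difference of -0.77. Mmp12 had -0.18 and 0.50, a difference of 0.68. Mmp3 had -0.08 and 0.40, a difference of 0.48. All 3 WT ratios given here were smaller in size than the probe SD of 0.28 for punching in WT, so their signs are not resolved.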

How the results depend on the processing

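No paired analysis was possible because each group has 1 array, and for the same reason no replicate could be left out. Over the settings tried, 0 ratios of at least 2-fold changed sign, whereas 5 of 16 subfamily medians did so under at least 1 setting. In all, 71 counts and 139 subfamily medians stayed close to the values reported, while 19 counts and 5 medians moved. With an offset of 50, without background correction and on the authors' scaled values, members higher with punching in BLT2KO numbered 4 and lower ones 0; members lower in BLT2KO_punched than in WT_punched numbered 1 under these settings and with the mean of probes. Members with a punching ratio 2-fold larger in BLT2KO numbered 1 under the same 3 settings and under median scaling. Without background correction and on the authors' scaled values, 1 member was higher with punching in WT. Those settings compress the ratios of dim genes by construction. Members higher in unwounded BLT2KO numbered 1 at a detection p-value under 0.05 and with no detection filter, and with no filter 1 had a punching ratio 2-fold larger in WT. With no filter, which adds undetected genes, the median log2 ratio was 0.0297 for Adam and 0.00724 for Adamts genes with punching in WT, -0.0568 for Mmp genes in unwounded and 0.00392 for Adamts genes in punched skin; with the mean of probes, Adam genes with punching in WT were at -0.00976, and the cause was not tested. Leaving out genes with no fold, an alternative chosen after seeing the data, moved no median by more than the probe SD. Median scaling set the median of all genes at 0.25 and 0.16 with punching in WT and BLT2KO, and at 0.12 and 0.03 between genotypes in unwounded and punched skin; members are to be read against these medians there. Signal over background limits the dim genes, such as Mmp10, Adamts7 and Adam12.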
